A study of Mus musculus with 36 samples.

Results

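The 10 heat shock chaperones described here were taken by symbol from the gene tables of mouse liver: Hspa1a, Hspa1b, Hspa8, Hsph1, Hsp90aa1, Hsp90ab1, Dnajb1, Hspb1, Hspe1 and Hspd1. They are 10 of 24346 symbols listed, all 10 were above 0 in every library, and all passed the filter on low values (a mean of at least 0.1 FPKM, the fragment count scaled to transcript length and library size). Livers came from wild-type male C57BL/6JRj mice of 16 weeks, fed chow freely and kept on a light-dark cycle with lights on at zeitgeber time 0 (ZT0). In the IH group, oxygen cycled 60 times per hour between 5% and 21% from ZT0 to ZT8 of each day for 4 weeks (chronic intermittent hypoxia, a model of sleep apnea that leaves out the airway obstruction), and the control group received cycles of air alone. Polyadenylated RNA was sequenced from 3 mice per condition at each of 6 time points 4 h apart, 36 libraries in all. Control mice shared the chamber procedure, the strain, the sex and the food, and ZT4 falls within the daily hypoxia while ZT8 falls at its end.

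Heat shock proteins hold other proteins while these fold. HSP70 proteins (Hspa1a, Hspa1b, Hspa8) bind short unfolded stretches, J-domain partners such as Dnajb1 deliver the client and start ATP hydrolysis, and exchange factors such as Hsph1 release it. HSP90 (Hsp90aa1, Hsp90ab1) acts later, on nearly folded kinases and steroid receptors, with cochaperones such as Stip1, Fkbp4 and Ahsa1. Hspb1 is a small heat shock protein that holds clients without ATP, and Hspd1 with its lid Hspe1 forms the folding chamber of the mitochondrial matrix. Many of these genes are targets of heat shock factor 1 (HSF1), which binds repeats of GAA and TTC, and in the liver their mRNAs are known to follow the daily rhythm of feeding and body temperature.

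All values are FPKM, which is scaled to transcript length, so levels may be compared between genes. The depth behind the values is unknown. FPKM summed to 561964 to 626371 per library except in control ZT12 replicate 2, with 808274. That library, control ZT16 replicate 3 and IH ZT0 replicate 2 held the acute-phase gene Saa1 above 10000 FPKM. Results that change without these 3 libraries are given with and without them. Fitted peak times, sizes of amplitudes and correlations are given only with no library left out. The 6 hepatocyte markers summed to at least 43952 FPKM in every library, against at most 100 FPKM for 6 stellate cell markers and 52.7 FPKM for 5 endothelial markers. The 6 Kupffer cell markers summed to 17.4 to 46.4 FPKM in IH and 19.3 to 166 FPKM in control. No marker of any of the 8 cell types was called at ZT4 in the fit of all 36 libraries. Over all time points, endothelial Lyve1 was the only marker called, higher in IH (0.31 on the log2 scale). The Kupffer cell markers had a median of -0.24 there, against 0.03 over all genes, with none called. Over ZT4 and ZT8, 2 of the 6 hepatocyte markers (Apoa1 and Cyp2e1) were called higher in IH, with a list median of 0.21 against 0.04 over all genes. Hnf4a alone of the 6 lay lower (-0.21, not called), and no marker of the other types was called. In bulk liver, fewer cells of a type and less RNA per cell cannot be told apart.

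Averaged over the 36 libraries, Hspa8 was the most abundant member at 656 ± 326 FPKM (SD, n = 36), followed by Hsp90ab1 at 361 ± 96.1, Hspd1 at 176 ± 18.1, Hspe1 at 153 ± 37.6 and Hsp90aa1 at 88.6 ± 50.0. Hspb1 averaged 42.3 ± 25.4 FPKM, Hsph1 18.8 ± 11.7, Hspa1b 11.4 ± 9.09, Dnajb1 9.32 ± 3.54 and Hspa1a 3.51 ± 2.95. Each member exceeded the next in this order in at least 34 of 36 libraries, except Hspa1b and Dnajb1. Hspa1b was above Dnajb1 in 19 of 36 libraries, so their order was within the spread. The constitutive members Hspa8, Hsp90ab1 and Hspd1 thus stood far above the stress-inducible Hspa1a.

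**Figure D1:**
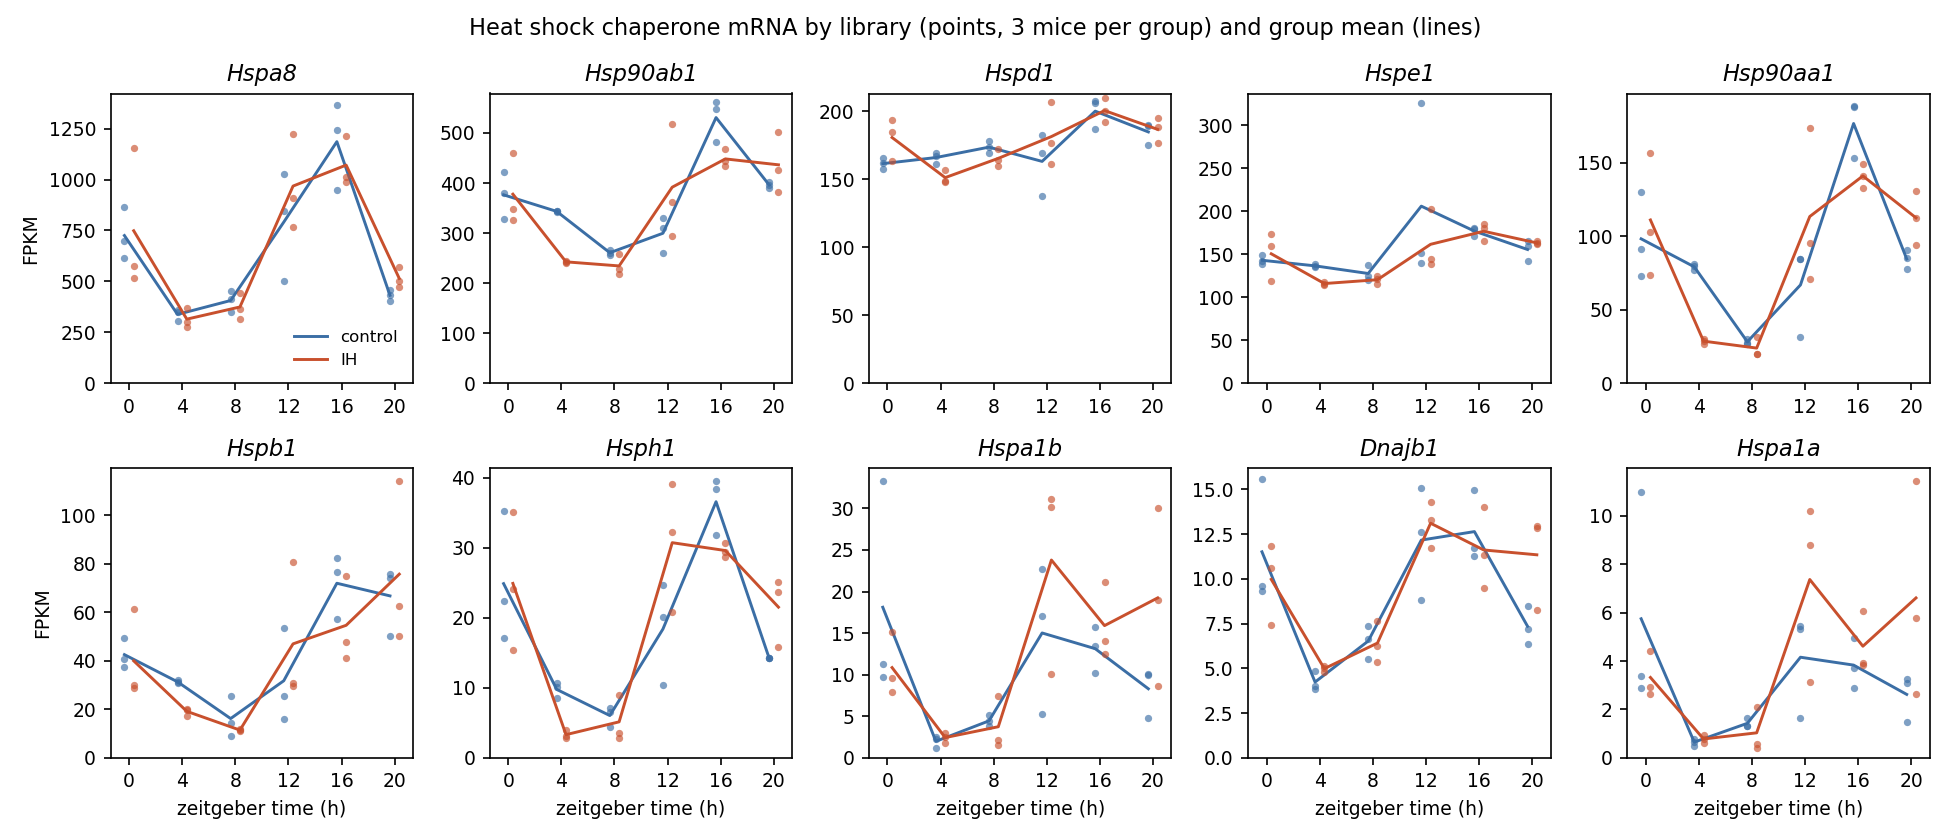
FPKM of each chaperone (y axes, linear from 0) against zeitgeber time (x axes, hours), with 1 point per library (3 mice per group), lines through the group means, control in blue and IH in orange. The lowest group mean falls at ZT4 or ZT8 for 9 members in control and for all 10 in IH. Later time points are not uniformly high: in control, Hsp90aa1 averages 79.1 at ZT4 and 66.8 at ZT12, and Hspa8 averages 432 at ZT20. At ZT4 the 3 IH values of Hsp90aa1 (27.0 to 30.3) lie below the 3 control values (77.0 to 80.8).

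The first question of the design was whether each transcript oscillated over the day in control and in IH liver. For each condition alone (18 libraries), limma was used to fit a cosine with a period of 24 h to the log2(FPKM + 1) values, and a gene was called rhythmic at a nominal P of 0.01 or less. In control, 6 of the 10 chaperones were rhythmic (Hspb1, Hsp90ab1, Hsph1, Hsp90aa1, Hspa8 and Dnajb1), where 20% of all 13215 genes tested were. In IH all 10 were rhythmic, where 39.9% of all genes were. The 6 rhythmic in control were rhythmic in both conditions, as were 15.5% of all genes. The inducible HSP70 genes and the mitochondrial pair were not called in control, where limma gave a nominal P of 0.017 for Hspa1b, 0.036 for Hspa1a, 0.043 for Hspe1 and 0.096 for Hspd1. Calls in control were less firm than those in IH: when single libraries were left out, Dnajb1 was still called in 7 of 18 fits and Hspa8 in 12 of 18. Without the libraries high in Saa1 the count in control was again 6, but with Hspe1 (nominal P of 0.00054 from limma) and Hspd1 (0.0018) in place of Dnajb1 and Hspa8.

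Every fitted peak fell in the dark phase. Fitted peaks lay between 15.4 h (Hspe1) and 19.3 h (Hspb1, Hsp90aa1) in control and between 16.0 h (Hspa8) and 18.4 h (Hspb1) in IH. The control fit of Hspe1 included ZT12 replicate 2, at 326 FPKM against 151 and 140 in the other control mice. Its peak without that library is not given. Lowest group means fell at ZT4 or ZT8 for 9 members in control and for all 10 in IH. Highest means fell at ZT16 for 7 members in control, while in IH they fell at ZT16 for 5 and at ZT12 for 4.

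The size of the oscillation differed widely among members. Peak over trough of the group means was 9.13-fold for Hspa1b in control, where the highest mean was at ZT0 and held 1 mouse at 33.2 FPKM, and 9.76-fold in IH. It was 6.26-fold and 5.89-fold for Hsp90aa1. It was 3.51-fold and 3.40-fold for Hspa8, 2.04-fold and 1.91-fold for Hsp90ab1, and 1.24-fold and 1.33-fold for Hspd1. Dnajb1 swung 2.99-fold and 2.63-fold, less than Hspa8, and Hspd1 had the smallest ratio of the 10 in both conditions.

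The fitted log2 amplitude was larger in IH than in control for 10 of 10 members, also under each of the 3 other scalings. The share of all genes with a larger amplitude in IH is not given, and the members are correlated. Hsph1 had an amplitude of 0.85 ± 0.20 (SE) in control and 1.41 ± 0.24 in IH, Hsp90aa1 0.83 ± 0.20 and 1.29 ± 0.18, and Hspa1b 0.88 ± 0.27 and 1.32 ± 0.25. Dnajb1 showed the smallest change, with 0.50 ± 0.14 and 0.55 ± 0.10. The median log2 ratio of amplitudes, IH to control, was 0.53 over the 10 members, against 0.07 over all 13215 genes, and 0.35 over the 6 members rhythmic in both conditions, against 0.04 over the 2047 genes rhythmic in both. The ratio of highest to lowest group mean was larger in IH for only 5 of the 10, however. Phases differed by a median of -0.39 h over the 10 members (IH minus control, 6 of 10 earlier in IH), against -0.50 h over all genes, and by -0.86 h over the 6 rhythmic in both (4 of 6 earlier), against -0.65 h over the 2047 genes. The largest advance was -1.34 ± 1.07 h (SE), for Hsp90aa1, and the largest delay 1.83 ± 1.55 h, for Hspe1, neither much larger than its error. The delay of Hspe1 rests on a control fit that included the high value of control ZT12 replicate 2.

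**Figure D2:**
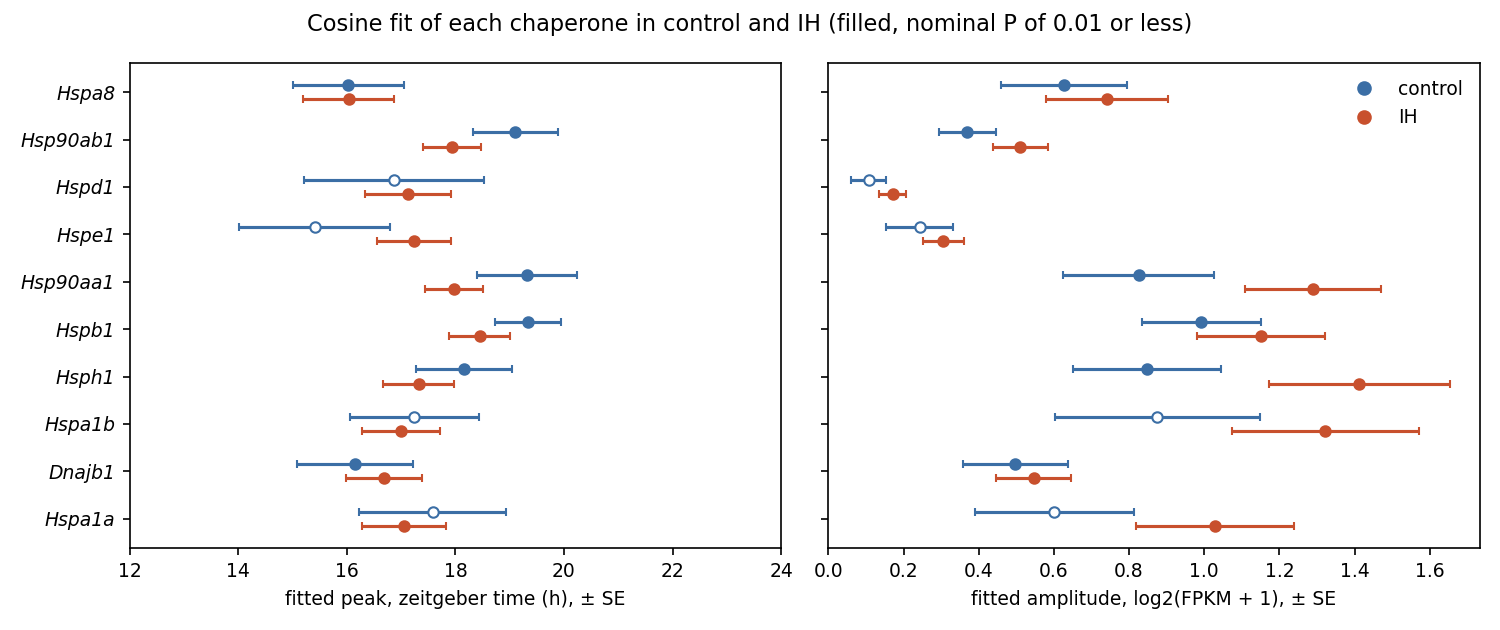
Fitted peak time (left, hours of zeitgeber time) and fitted amplitude (right, log2 scale) of each chaperone with SE bars, control in blue and IH in orange; filled points passed a nominal P of 0.01. Peaks lie between 15.4 and 19.3 h, and each orange amplitude lies right of the blue one.

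These differences between the conditions did not pass their own test. When the cosine was allowed to differ between conditions in 1 limma model of all 36 libraries (Benjamini-Hochberg adjustment over all genes), no member differed, and neither did any of the 13215 genes (0% called). At an unadjusted p below 0.05 there were 0 members and 4.91% of all genes. The smallest p among members was 0.13 for Hsp90aa1 (adjusted p = 0.92). With condition by time point as a factor in place of the cosine, 0.136% of genes and no member passed an adjusted p of 0.05, and Hsp90aa1 (adjusted p = 0.085), Hsph1 (0.12) and Hsp90ab1 (0.17) came nearest. A rhythm called in IH alone is therefore not shown to differ from control.

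The comparison of IH with control at each time point was sharpest at ZT4, inside the hypoxic window. Hsp90aa1 and Hsph1 were lower in IH there, while the inducible HSP70 genes, Dnajb1 and Hspa8 had overlapping values. Of 60 comparisons (10 members at 6 time points), 2 passed an adjusted p of 0.05, both lower in IH at ZT4. At ZT4 1.16% of all genes were called and 0.272% were called lower. With ZT4 fitted alone, 5 members were called lower (Hsp90aa1, Hsp90ab1, Hsph1, Hspb1 and Hspe1), where 5.52% of all genes were called and 1.5% were called lower.

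Hsp90aa1, the inducible cytosolic HSP90 (chr12:110690605-110702728, minus strand, GRCm38/mm10), had 79.6, 77.0 and 80.8 FPKM in the 3 control mice at ZT4 and 30.3, 28.6 and 27.0 in the 3 IH mice. The groups did not overlap, and the IH mean was 2.76-fold below control. The difference was -1.44 ± 0.30 on the log2(FPKM + 1) scale (SE, limma adjusted p = 0.015). By ZT8 control had come down to 28.2 ± 1.97 FPKM (SD, n = 3), close to the 28.6 ± 1.65 that IH already had at ZT4, and IH stood at 23.9 ± 6.77. The groups overlapped again at ZT8.

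Hsph1, the HSP110 exchange factor of HSP70 (chr5:149614287-149636376, minus strand), had 10.2, 10.6 and 8.54 FPKM in control at ZT4 and 2.85, 3.10 and 3.98 in IH. The lowest control mouse was above the highest IH mouse by more than the range of either group. The difference was -1.33 ± 0.32 on the log2(FPKM + 1) scale (adjusted p = 0.037), 2.95-fold in the means. At ZT8 the 3 IH values were 2.86, 3.57 and 9.00, with IH replicate 3 above all 3 control values, the highest of which was 7.15.

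Hsp90ab1, the constitutive HSP90 (chr17:45567775-45573271, minus strand), had 343, 343 and 344 FPKM in control at ZT4 and 243, 240 and 245 in IH. Both groups were tight and far apart, but with the spread shared over 36 libraries the difference of -0.50 ± 0.14 had an adjusted p of 0.075. It passed in the test of ZT4 and ZT8 together (12 libraries, time point as a factor): -0.33 ± 0.07, adjusted p = 0.020. Hsp90aa1 passed there too, at -0.85 ± 0.19 (adjusted p = 0.028). These 2 were the members called in that test, where 7.98% of all genes were called, 6.05% higher and 1.93% lower in IH. At an unadjusted p under 0.05 there were 6 members and 27.1% of all genes. The hepatocyte markers summed to 49552 to 52050 FPKM in control at ZT4 and 58533 to 62164 in IH, the opposite direction. Hnf4a alone among them lay lower in IH at ZT4 (-0.23, not called). The part of these markers in the differences was not tested. Hspe1 (-0.16 ± 0.05, adjusted p = 0.052) and Hsph1 (-0.82 ± 0.25, adjusted p = 0.064) had values close to the threshold.

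Groups without overlap give the same picture at ZT4. All 3 IH mice were below all 3 control mice for 6 of 10 members (Hsph1, Hsp90aa1, Hsp90ab1, Hspb1, Hspe1 and Hspd1), against 7.79% of all genes, and in the other direction for 0 members, against 26.7% of all genes. Hspb1 had 31.9, 31.1 and 30.9 FPKM in control and 19.9, 20.1 and 17.4 in IH, and its difference of -0.68 ± 0.39 had an adjusted p of 0.38. In the mitochondrial pair the means were 136 FPKM in control and 116 in IH for Hspe1 and 166 and 151 for Hspd1, and neither passed. Hspa1a (0.65 and 0.78 FPKM in control and IH), Hspa1b (1.98 and 2.44), Dnajb1 (4.23 and 4.98) and Hspa8 (338 and 315) are given as means, and their values overlapped between the conditions.

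The ZT4 calls depended on having all libraries, while the sizes did not. Leaving out 1 library at a time, the Hsp90aa1 difference ran from -1.48 to -1.40 and its adjusted p rose above 0.05 without IH ZT4 replicate 2 or 3 or control ZT4 replicate 1 or 3 (at most 0.084), and that of Hsph1 ran from -1.43 to -1.25 and was lost without any 1 of the 6 ZT4 libraries (at most 0.13). In the test of ZT4 and ZT8, Hsp90ab1 was lost without IH ZT4 replicate 2 or control ZT4 replicate 1 (adjusted p = 0.052 in both), and Hsp90aa1 without 7 of the 12 libraries (any IH ZT4 library, IH ZT8 replicate 1 or 2, control ZT4 replicate 1 or 3; at most 0.069).

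**Figure D3:**
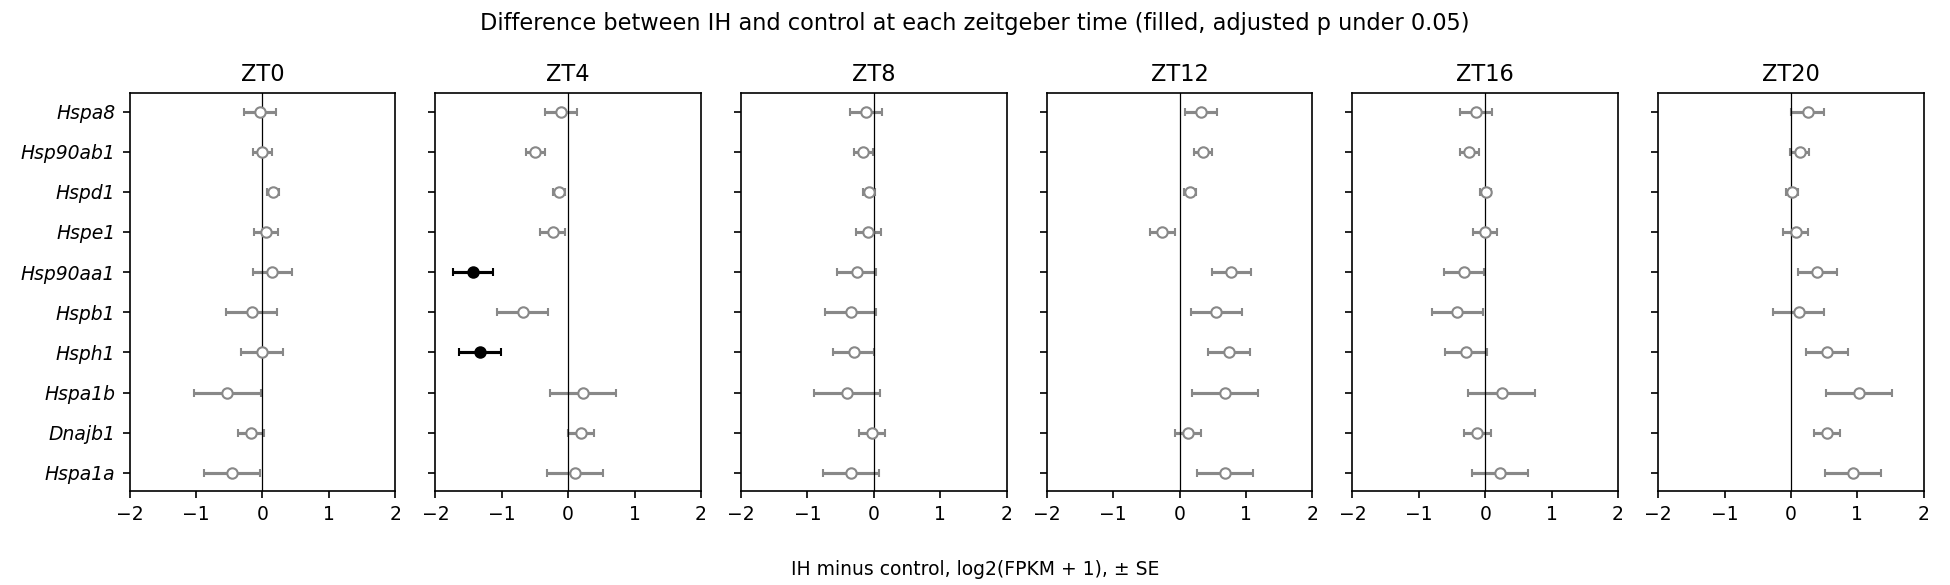
Difference between IH and control (x axes, log2(FPKM + 1), points with SE bars) for each chaperone (rows) at each zeitgeber time (panels); filled points passed an adjusted p of 0.05. Both filled points are at ZT4, for Hsp90aa1 at -1.44 and Hsph1 at -1.33, and at ZT12 9 of 10 open points lie right of 0.

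After the hypoxic window the direction varied by time point, and no member passed the test. The median difference of the 10 members was 0.45 at ZT12, -0.13 at ZT16 and 0.32 at ZT20. Over all genes it was 0.03, 0.02 and 0.03. At ZT12, 9 of 10 members had higher fitted values in IH (all but Hspe1), 3 of them at an unadjusted p under 0.05 (24.6% of all genes), and none passed adjustment, where 0.772% of all genes did. No member was without overlap at ZT12, where 6.34% of all genes lay wholly higher and 6.74% wholly lower in IH. Hsp90aa1 had 31.7, 84.3 and 84.4 FPKM in control and 70.7, 174 and 95.6 in IH, a difference of 0.78 ± 0.30 (adjusted p = 0.12) with overlapping groups. Control replicate 1 was the lowest of the 3 control mice at ZT12 in 8 members and IH replicate 2 the highest IH mouse in 7, so the same mice stood apart in most members. Hspe1 was the exception: control replicate 2, the library with the high FPKM sum, had 326 FPKM against 151 and 140 in the other control mice. Without the 3 libraries high in Saa1, 10 of 10 members were higher in IH at ZT12. The same control library stood apart in markers of other cells: the 6 Kupffer cell markers summed to 35.4, 166 and 36.6 FPKM in control at ZT12 and 24.2, 29.4 and 19.9 in IH, and the 3 neutrophil markers tested to 1.51, 210 and 1.03 FPKM against 0.904, 2.54 and 0.334. At ZT12 all 6 Kupffer cell markers and 2 of the 3 neutrophil markers had an unadjusted p under 0.05, lower in IH (medians -0.96 and -1.84), and none passed adjustment. Their part in the ZT12 differences was not tested.

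At ZT16, the control peak, Hsp90aa1 had 188, 188 and 153 FPKM in control and 141, 149 and 133 in IH. Hsph1 and Hsp90ab1 likewise lay lower in IH without overlap, 3 of 10 members against 3.84% of all genes. None of the 3 passed the test (0.00757% of all genes did). At ZT20, Hspa8, Hsph1 and Hsp90aa1 lay higher in IH without overlap, 3 of 10 members against 11.8% of all genes. Hsp90aa1 had 90.5, 85.4 and 77.6 FPKM in control and 93.8, 131 and 113 in IH at ZT20. At ZT20 2 members had an unadjusted p under 0.05, against 4.74% of all genes. Dnajb1 had the smallest limma p there, 0.010 unadjusted and 0.86 adjusted, with 7.22, 6.35 and 8.48 FPKM in control and 8.25, 13.0 and 12.8 in IH. At ZT0 and ZT8 no member and at most 0.00757% of genes passed. No member was without overlap there, against 4.59% (higher in IH) and 6.21% (lower) of all genes at ZT0 and 11% and 7.16% at ZT8. No member reached an unadjusted p of 0.05 at ZT0, ZT8 or ZT16, against 7.57%, 4.74% and 3.3% of all genes.

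No member passed the test of level over all time points, where 0.356% of all genes did (0.053% lower in IH). None reached an unadjusted p of 0.05 either, where 10.8% of all genes did. The differences ran from -0.16 ± 0.16 (Hspb1) to 0.21 ± 0.21 (Hspa1b) on the log2(FPKM + 1) scale (SE).

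Hspa1a (chr17:34969190-34972156) and Hspa1b (chr17:34956436-34959238), the inducible HSP70 genes, lie on the minus strand 9951 bases apart. Their coding sequences, 1926 and 1929 bases long, were 99.4% identical in an alignment, with 11 differing columns. Reads shared by them could be split either way by the upstream tool, so their separate levels are uncertain. Hspa1b was 2.35 to 4.15 times Hspa1a in every library (r = 0.989 over 36 libraries on the log2 scale), which such a split could set. Both are also the members with the widest spread between mice. Hspa1b had 11.3, 33.2 and 9.75 FPKM in control at ZT0, and 8.67, 19.0 and 30.0 in IH at ZT20. The same mice were high in Hspa1a, with 11.0 FPKM in control ZT0 replicate 2 and 11.4 in IH ZT20 replicate 3. At ZT4 both genes were near their floor in all 6 mice, at 1.17 to 2.95 FPKM for Hspa1b.

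Dnajb1 (chr8:83608193-83612653), the J-domain partner induced with HSP70, followed them most closely of the other members, with r of 0.936 to Hspa1b. Hsp90aa1 and Hsp90ab1 formed a second close pair (r = 0.958), with Hspb1 near Hsp90ab1 (0.907) and Hsph1 near Hsp90aa1 (0.930). The 45 pairs ran from r of 0.33 (Hspe1 with Hspd1) to 0.99, with a median of 0.68. For the lowest pair, control ZT12 replicate 2 held both the highest Hspe1 (326 FPKM) and the lowest Hspd1 (138 FPKM) of the 36 libraries. The r without that library is not given, so this pair is not shown to be the least alike. These correlations describe 36 libraries that share the daily rhythm and their library scaling.

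Promoters were searched because HSF1 sites are what the family is known for, and the members moved together. Of the 10 members, 7 had a promoter window in RefSeq (GRCm38.p6, 300 bases, 250 before and 50 after the transcript start). The short element was GAANNTTC or TTCNNGAA, each of which reads alike on both strands. The long element was GAANNTTC followed by NNGAA, or its reverse complement, and therefore contains both short ones. The short element was found in 6 of the 7 (Hspa1a, Hspa1b, Hspb1, Hsph1, Hspe1 and Hspd1), against 17.0% of all 27025 genes with a window, 14.4% of the 9981 of them that were tested and 20.3% of 79 other genes of the chaperone lists. Over the 32851 windows of all genes the share was 15.1%. The long element was found in 3 members (Hsph1, Hspe1 and Hspd1), against 0.662% of all genes with a window and 2.53% of the 79 (0.603% of windows). A gene counted if any of its windows held the element, and 1 of the 2 Hspd1 windows held none. Neither element lay in the windows of Dnajb1. Hspa1a and Hspa1b have nearly the same stretch, and Hspe1 and Hspd1 share the same genomic bases. The counts of members with an element are therefore not counts of separate sites. Below, the elements are in capitals, each sequence is read 5′ to 3′ on the gene's strand, and the first 3 show the 130 bases before the start (chr17:34972157-34972286, chr17:34959239-34959368 and chr5:135887789-135887918). The others show 30 bases around an element, at chr1:55088053-55088082 for Hspe1 and chr5:149636279-149636308 for Hsph1.
Hspa1a: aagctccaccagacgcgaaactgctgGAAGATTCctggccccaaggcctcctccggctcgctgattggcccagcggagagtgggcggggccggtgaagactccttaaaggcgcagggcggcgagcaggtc
Hspa1b: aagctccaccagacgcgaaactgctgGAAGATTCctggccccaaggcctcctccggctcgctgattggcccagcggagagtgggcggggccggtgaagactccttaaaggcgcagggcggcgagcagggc
Hspb1: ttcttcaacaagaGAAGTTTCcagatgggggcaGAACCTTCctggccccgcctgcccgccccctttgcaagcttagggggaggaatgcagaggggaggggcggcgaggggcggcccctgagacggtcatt
Hspe1: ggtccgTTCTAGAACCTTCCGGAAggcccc
Hsph1: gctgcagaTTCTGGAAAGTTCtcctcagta

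The Hspa1a and Hspa1b stretches were identical at 129 of 130 bases, as the coding sequences nearly are. Hspe1 and Hspd1 lie head to head on chromosome 1 with gene spans that share 112 bases (chr1:55088132-55091307, plus, and chr1:55077835-55088243, minus), and the 18 bases in capitals were the same genomic bases in the Hspe1 window and in 1 of the Hspd1 windows. The long element of Hsph1 lay after the start in both of its RefSeq windows, at bases 16 to 28 after one start and 37 to 49 after the other. The mitochondrial pair has its long element upstream of the start of Hspe1 and inside the GENCODE span of Hspd1. In the RefSeq Hspd1 window that held the element, it also lay before the start, at bases 144 to 132 and 139 to 127. The pair had small amplitudes (0.11 to 0.31 on the log2 scale). Hsph1, also with the long element, had amplitudes of 0.85 in control and 1.41 in IH. Dnajb1, with none of the searched elements in its windows, was rhythmic in both conditions. The relation of the elements to rhythm or amplitude was not tested. A match is a run of letters and not evidence of binding.

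The mRNA of Hsf1 was not called rhythmic, and HSF1 protein and its activity were not measured in these data. The limma nominal P of Hsf1 was 0.16 for control and 0.65 for IH, and its values lay between 4.97 and 10.8 FPKM in the 36 libraries. Of the 4 heat shock factor genes tested, only Hsf4 was rhythmic, in both conditions, with a peak at 12.1 h in control, a call kept in 5 of 18 fits that left out 1 control library. Hsf4 was the factor called higher in IH over ZT4 and ZT8 (0.42 ± 0.06, adjusted p = 0.0065).

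The HSP90 cochaperones had the largest share of rhythmic genes in control among the other chaperone lists. In control 7 of its 15 tested genes were rhythmic and in IH 9, the 7 among them (backgrounds 20%, 39.9% and 15.5%). Fkbp4, an immunophilin that links HSP90 to steroid receptors, had its fitted peak at 18.8 h (control) and 18.0 h (IH). Ahsa2 peaked at 17.0 h in both conditions, and Fkbp5 at 13.6 h (control) and 11.6 h (IH). Stip1, the adaptor between HSP70 and HSP90, had 41.7, 42.8 and 36.5 FPKM in control at ZT4 and 25.1, 23.6 and 22.9 in IH, groups apart, with a difference of -0.73 ± 0.17 (adjusted p = 0.035). Fkbp5, an immunophilin induced by glucocorticoids, went the other way, with 4.70, 4.06 and 4.50 FPKM in control and 9.79, 6.57 and 14.7 in IH (1.01 ± 0.24, adjusted p = 0.040). Both calls were lost when single ZT4 libraries were left out (any 1 of the 6 for Stip1, any but IH ZT4 replicate 2 for Fkbp5, at most 0.13 and 0.22), and without IH ZT4 replicate 3 the Fkbp5 difference was 0.74. Over ZT4 and ZT8 together, 5 cochaperones passed, Fkbp5 higher and Ahsa1, Fkbp4, Ppid and Stip1 lower, from -0.21 to -0.42 (4 of 15 lower, background 1.93%). With single libraries left out, each of these 5 calls held in 2 to 6 of 12 fits. The list's median was -0.08, against 0.04 over all genes.

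The other lists are read against the same 20% of all genes in control and 39.9% in IH. Among 16 HSP70 relatives and cofactors, control had 3 rhythmic genes and IH 6, shares near those of all genes. Fitted peaks in control and IH were 13.8 and 13.3 h for Hspa2, 19.9 and 18.6 h for Hspa4l, and 3.11 and 4.30 h for Bag6. Hspa4, Hspa4l (exchange factors like Hsph1) and St13 (an HSP70-binding adaptor) were called lower in IH over ZT4 and ZT8 (-0.18 to -0.40, limma adjusted p 0.026 to 0.036), 3 of 16 where 1.93% of all genes were called lower, and these calls held in 3 to 7 of 12 fits without 1 library. Among 16 J-domain proteins there were 3 in control and 10 in IH. Their fitted peaks were 12.9 h (control) and 12.2 h (IH) for Dnajb6, 15.3 and 15.8 h for Dnaja1, and 19.7 and 18.9 h for Dnajb2. Of 14 subunits of the cytosolic chaperonin and prefoldin, Pfdn2 alone was called in control, and 7 were in IH. Of 12 mitochondrial chaperones and proteases, 3 and 5 were rhythmic, again near the shares of all genes, and Clpx had the largest log2 amplitude of them (1.46 in control, 1.29 in IH) with a peak near 23.1 h in control. Grpel1 peaked at 9.79 h and Dnajc19 at 12.1 h in control. Of 4 small heat shock proteins tested besides Hspb1, Cryab was rhythmic, in IH alone. Endoplasmic reticulum chaperones, a compartment with its own stress sensors, had 5 of 12 rhythmic in each condition. Their median difference was -0.68 at ZT4 and 0.78 at ZT12 (all genes 0.07 and 0.03), with Hyou1 called lower at ZT4 (-1.71 ± 0.38, adjusted p = 0.025) and Dnajc3 and Pdia4 called higher at ZT12, where Kupffer cell and neutrophil markers differed as given above. Calr was called lower over ZT4 and ZT8 (-0.35). In control, Calr, Pdia3 and Pdia6 peaked at 22.6, 21.8 and 22.9 h. In the remaining lists, the J-domain gene Dnajb14 was called lower at ZT12 (-0.36, limma adjusted p = 0.049). Over ZT4 and ZT8, Dnajc19 (0.18) and Pfdn5 (0.24) were called higher and Cct3 (-0.25) lower. For these calls between conditions, those of the endoplasmic reticulum list and that of Hsf4, fits without single libraries are not given.

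**Figure D4:**
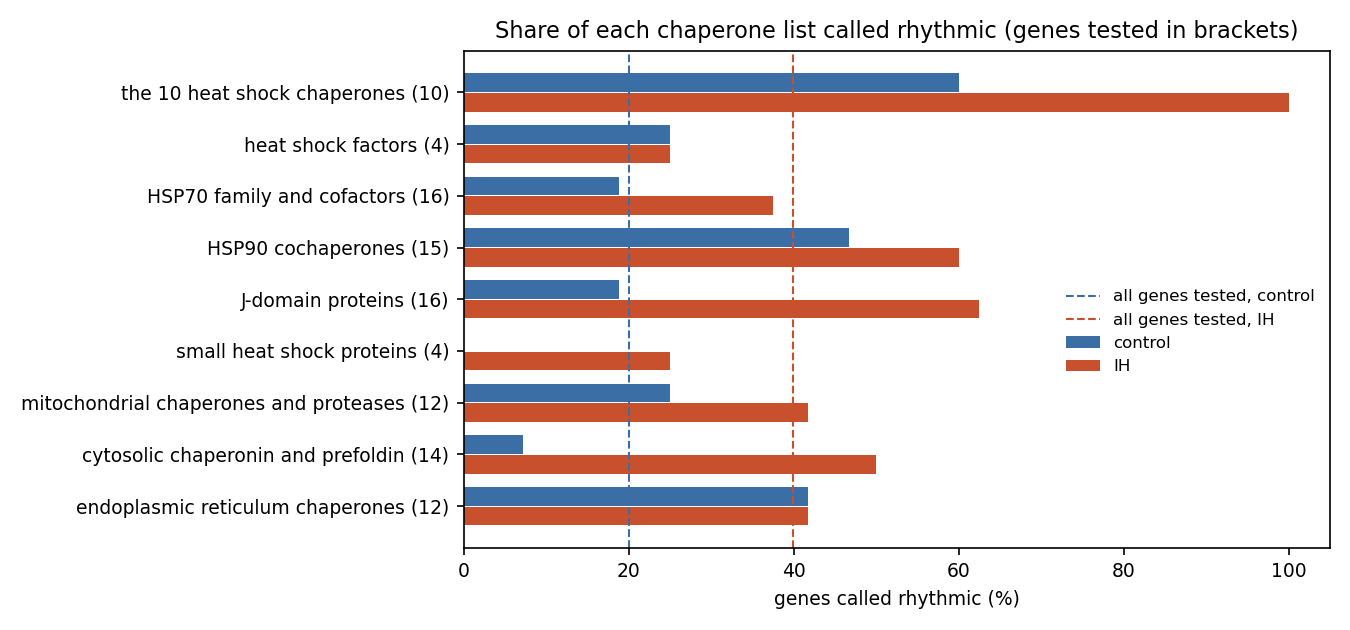
Share of genes called rhythmic (x axis, percent) in each chaperone list (rows, number tested in brackets) in control (blue bars) and IH (orange bars), with dashed lines for all 13215 genes (20% and 39.9%). The 10 members stand at 60% and 100%, and the HSP90 cochaperones at 7 and 9 of 15.

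Over all 36 libraries, the genes most like the members were mostly HSP90 partners. The members' z-scores were averaged per library and correlated with the log2 values of 9803 other genes of at least 1 FPKM. The highest r belonged to Fkbp4 (0.94), Chordc1 (0.94), Ahsa2 (0.93), Ahsa1 (0.93), Cacybp (0.93), Stip1 (0.93), Nop16 (0.92) and Ube2f (0.92). The lowest belonged to Cirbp (-0.95), Zkscan17 (-0.93), Casp6 (-0.93), Dyrk1b (-0.93) and Slc8b1 (-0.92). These are descriptions over libraries that share 1 daily rhythm.

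Cirbp, the cold-inducible RNA-binding protein, rises when cells cool, and it mirrored the chaperones in each condition (r = -0.94 within control, -0.97 within IH). It had 18.7, 23.6 and 18.0 FPKM in control at ZT4 and 25.5, 28.5 and 20.1 in IH, and 5.04, 5.07 and 5.87 against 6.31, 6.87 and 6.55 at ZT16. Neither difference passed (0.28 ± 0.23 at ZT4, limma adjusted p = 0.57, and 0.26 ± 0.23 at ZT16). At ZT16, 10% of all genes lay wholly higher in IH. The fitted peak of Cirbp lay at 5.35 h (control) and 5.34 h (IH). Rbm3, the other gene of that class, peaked later, at 10.9 and 9.72 h, and its r to the chaperone average was -0.24. Over ZT4 and ZT8, limma called Rbm3 higher in IH (0.31 ± 0.08, adjusted p = 0.046), where 6.05% of all genes were. Cirbp was not called there (0.35 ± 0.11, adjusted p = 0.074). Fits of Rbm3 without single libraries are not given.

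**Figure D5:**
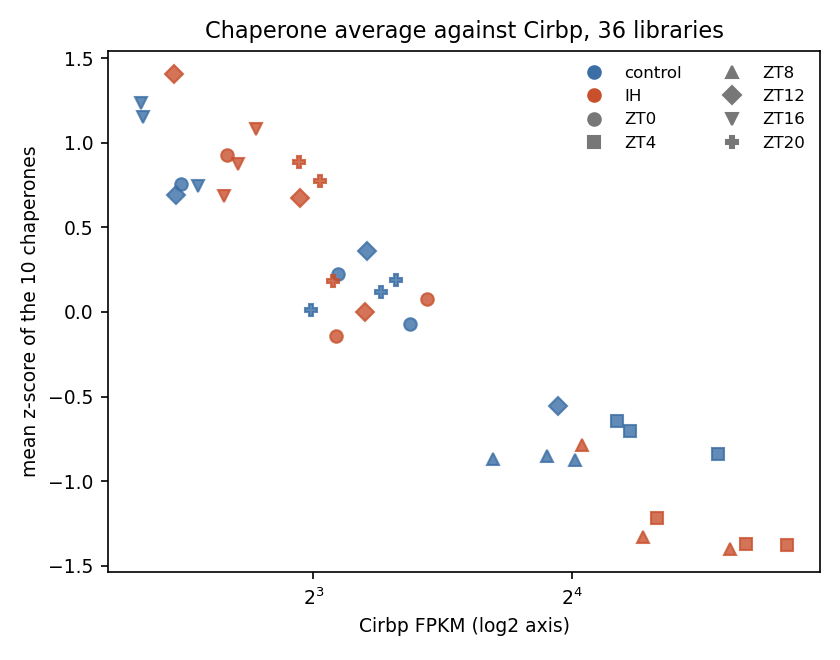
Mean z-score of the 10 chaperones (y axis) against Cirbp FPKM (x axis, log2 scale) in the 36 libraries, coloured by condition and shaped by zeitgeber time. The points descend from left to right (r = -0.95), with ZT4 and ZT8 at the lower right and ZT16 at the upper left.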

How the data were processed

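Liver RNA was sequenced by the authors as stranded paired-end libraries. Per the labels, mm10, TopHat2 2.1.1 and Cufflinks 2.2.1 were used, and the deposited values are FPKM per replicate. The annotation and whether strand was used in counting are not given in the sources used here. Counts were not used, so depth is unknown. Each condition has its own table with identical column names, and the table's name gave the condition. Symbols on more than 1 row (280) were left out.

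Values were analysed as log2(FPKM + 1), which understates the change of low genes, with limma 3.58.1 (intensity trend) in R 4.3.3, in 13215 genes averaging 0.1 FPKM or more. Thresholds were a nominal P of 0.01 for rhythms and a Benjamini-Hochberg adjusted p of 0.05 otherwise. The scripts were tested on simulated data. Gene coordinates came from GENCODE vM21 and promoters from RefSeq. The members, lists and tests were chosen with earlier results of these data known. In each list, up to 3 genes with the smallest rhythm P (the larger of both conditions) were picked by rule, as were the 8 highest and 5 lowest correlations. Not all genes picked by rhythm P are named in the text. Other genes called at ZT4, at ZT12 or over ZT4 and ZT8 were named after their values were seen. Alternatives covered the pseudocount, filter, scaling, sample weights, replicate block and leaving out libraries.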

Additional observations from a re-analysis of the deposited data

How the results depend on the processing

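The count of rhythmic chaperones was 10 of 10 in IH under every alternative run and 5 to 9 in control (9 with sample weights, 8 with an F test over the 6 time points, 5 with no filter, with quantile normalization or with the replicate number as a block), with 4 to 8 when single libraries were left out. No chaperone passed the rhythm difference or the level over all time points under any alternative. Over ZT4 and ZT8, where 2 were called, 1 was called with no filter, 4 with quantile normalization, 5 with sample weights, 5 at ZT4 alone (1.5% of all genes called lower there) and 0 at ZT8 alone. Of the 60 comparisons at single time points, where 2 were called, 1 was called with no filter, 1 with FPKM rescaled to a common sum, 5 with sample weights and 5 with each time point fitted alone. Apart from ZT4 alone, the shares of all genes called under these alternatives are not given. Changes in these counts may therefore not be particular to the members. Leaving out single libraries gave 0 to 4 calls over ZT4 and ZT8 and 0 to 4 at single time points (0 in both without IH ZT4 replicate 2). The main calls were also lost without other single libraries, as given above. Calls ran from 0 to 0 in the rhythm difference and in the level over all time points, and from 10 to 10 in the IH rhythm. The replicate block left 10 rhythmic in IH and 2 called in each of the ZT4 tests, and it was not used since only 6 of 18 same-numbered pairs correlated above 0.1. Direction turned only in values that did not pass. Over all time points these were Hspa8 (-0.018 with median of ratios scaling, -0.014 with sample weights, -0.0196, -0.00747 and -0.0229 without IH ZT0 replicate 1, IH ZT12 replicate 2 or control ZT12 replicate 1, of a range from -0.0229 to 0.0608 over single libraries left out), Hspd1 (-0.025 with median of ratios scaling, -0.015 with quantile normalization, -0.021 with sample weights, -0.0026 without the 3 libraries high in Saa1) and Hspe1 (0.00727 without those libraries). Over ZT4 and ZT8 they were Hspa1a (0.11 at ZT4 alone, 0.00269 without IH ZT8 replicate 1, of a range from -0.245), Hspa1b (0.22 at ZT4 alone, 0.092 and 0.029 without IH ZT8 replicate 1 or 2, of a range from -0.289) and Dnajb1 (-0.026 at ZT8 alone). Of the other values of named genes under alternatives, 3501 kept their side of the threshold, 219 lost it and 44 gained it. The cause of these changes was not tested. Without counts, the depth behind the low values of Hspa1a is unknown.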
